A study of Coprinopsis cinerea AmutBmut pab1-1 with 201 samples.

Results

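Overlapping convergent pairs are neighbouring genes transcribed towards each other whose annotated transcripts run past one another at their 3′ ends. They were found in Coprinopsis cinerea, an inky cap mushroom, by sorting the 13617 counted transcripts by scaffold and start. A pair was kept where a plus-strand gene was followed by a minus-strand gene, the first ended at or after the start of the second, and neither contained the other. Of 13597 adjacent pairs, 1641 (12.1%) met the rule, which is 46.5% of the 3526 convergent pairs. They held 3282 genes, 24.1% of all counted genes, each in 1 pair. The 1102 convergent pairs with a gap of 1 to 500 bp served for comparison, and 769 convergent pairs lay farther apart, 13 had 1 gene inside the other and 1 pair abutted with no base between.

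A transcript of a protein-coding gene ends where its nascent RNA is cleaved and given a poly(A) tail, some way past the stop codon, and the stretch between is the 3′ untranslated region (UTR). Where convergent genes overlap, the ends of both messages are complementary to each other, and such pairs are called natural antisense transcripts in cis. In other organisms, convergent transcription has been linked to collisions between polymerases, to double-stranded RNA and to altered termination, while many overlapping pairs are transcribed side by side in a cell population.

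All libraries came from the strain AmutBmut pab1-1, whose mating type mutations let it fruit without a partner, so every group carries the same genotype. The libraries formed 67 groups of 3. They covered oidia (asexual spores) at 0 and 18 h of germination, basidiospores (sexual spores) at 0, 4, 8 and 12 h, and mycelium grown in darkness for 12, 36, 60, 84, 108 and 132 h. Aerial and attached mycelium were taken at 156 h, after 1 and 2 h of light, and 2, 6, 12, 18 and 24 h into the darkness that followed, the last with hyphal knots, the first aggregates of a fruiting body. Primordia were taken 6, 12, 18 and 24 h into a light and dark cycle of 12 h each. Colonies moved to water agar were taken after 2, 4, 8, 16 and 24 h, and knots on 1% water agar 30, 22.5, 15 and 7.5 h before, at, and 7.5 h after the knot stage. Stress groups were freezing at −20 °C for 30 min, cobalt chloride (2 mM), heat at 47 °C for 2 h, sealed plates with carbon dioxide, drought, hydrogen peroxide (1 mM), acid, alkali, sorbitol (10%), Congo red (1%), hypoxia, cold at 4 °C for 4 h, cutting, calcium (200 mM), copper sulphate (2 mM) and voriconazole. The cobalt cultures were 7 days old and also had 2 h of light induction, then 22 h of darkness. The frozen and heated cultures were 6 days old, and the sealed plates stood for 6 days at 28 °C in the dark. Sclerotia (resting bodies, 4 weeks old, labelled as possibly holding some mycelium), mycelium meeting or overgrown by the mould Trichoderma, and 4 control groups (for cobalt, for liquids, for hypoxia, and for calcium, copper and voriconazole) completed the set. The gene identifiers carry no names or products in the files used, so no tissue could be checked against its marker genes and no role can be given for any gene named here.

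Depth differed widely, with library totals between 213736 and 26101402 counts (median 9984538). Mycelium overgrown by Trichoderma had the 3 smallest, of which the deepest held 961041 counts. Levels are given as CPM, counts scaled to a common library size, which need no correction for length because the reads come from the 3′ end. In bulk samples, fewer cells of a kind and less RNA per cell cannot be told apart. The strand setting of the counting is not given in the sources used here. Without it, reads of a gene and of its antisense partner cannot be told apart where they overlap, so the counts of all members are uncertain to that extent.

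Most overlaps were short. The median was 97 bp, the quartiles were 61 and 144 bp, the range was 1 to 1582 bp, and 1427 pairs (87.0%) overlapped by 200 bp or less. In 869 pairs (53.0%) the overlap held no coding sequence of either gene, at a median length of 71 bp. It reached the coding sequence of 1 partner in 562 pairs (34.2%, median 117 bp) and of both in 210 pairs (12.8%, median 185 bp). Where the overlap lay wholly within both annotated 3′ UTRs, in 796 pairs (48.5%), a median of 41.6% of the UTR was shared (quartiles 21.4% and 64.2%). The gap pairs had a median gap of 149 bp (quartiles 53 and 290 bp).

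**Figure D1:**
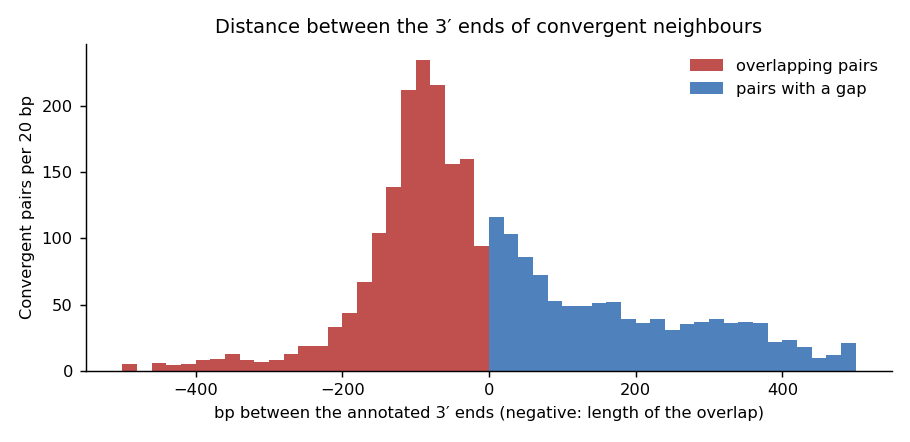
Number of convergent pairs per 20 bp (y axis) by the distance in bp between the annotated 3′ ends (x axis), with overlaps as negative values in red and gaps in blue. Pairs overlapping by more than 500 bp, 57 in all, lie outside the axis, and the overlaps gather around their median of 97 bp.

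Annotated 3′ UTRs were about as long in members as elsewhere. Their median length was 140 bp in members, 144 bp in genes of gap pairs and 142 bp in all counted genes with a UTR. A 3′ UTR was annotated for 98.9% of members against 90.3% of genes in gap pairs and 89.1% of all genes. This share is not independent of the rule, since a model that stops at the stop codon reaches its neighbour less easily. The share of convergent pairs that overlapped varied between scaffolds, from 63.0% on scaffold 5 and 55.7% on scaffold 1 to 26.5% on scaffold 11 and 23.9% on scaffold 13, among the 13 scaffolds with 88 or more convergent pairs. Among the members, 113 also overlapped a divergent or tandem neighbour.

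Members were seldom silent. A mean of 1 CPM or more over all libraries was reached by 3028 members (92.3%), against 83.1% of genes in gap pairs and 80.9% of all genes, and the median mean level was 17.0 CPM in members, 15.6 CPM in gap pairs and 13.3 CPM over all genes. Members more often have an annotated 3′ UTR, and levels were not compared among genes with a UTR only. The part of the rule in these differences was thus not tested. The level was lower in each class of longer overlap, an order that was not tested. Reads come from the 3′ end, where the overlaps lie, and the strand setting is not known. The counts are thus uncertain within the overlap, and the part of this in the order was not tested either. The median of the mean CPM was 24.9 for overlaps of 1 to 50 bp, 19.6 for 51 to 100 bp, 14.1 for 101 to 200 bp, 11.6 beyond that up to 500 bp and 10.2 for more than 500 bp. Values that were not whole numbers, which can arise where a read is divided between several places, were found in at least 50% of the libraries that had any read of the gene for 133 members (4.05%), against 10.1% of genes in gap pairs and 11.5% of all genes. In 3.92% of combinations of a pair and a library both partners had such a value, and in 0.511% with the same fractional part, against 5.01% and 0.61% in gap pairs.

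Partners often differed several-fold in level. In 1402 of the 1641 pairs both partners had a mean of 1 CPM or more, in 224 pairs 1 partner did and in 15 pairs neither, and of the 1102 gap pairs 789 qualified. Over the 1402 pairs the partner with the higher mean exceeded the other by a median of 3.10-fold, and by 4-fold or more in 42.2% of pairs. The plus-strand partner was the higher one in 49.1%. In the 789 gap pairs the median was 4.56-fold and the share beyond 4-fold 53.4%. The mean log2 levels of partners had a correlation across pairs of 0.01 in overlapping and −0.01 in gap pairs, which describes pairs of 1 genome and is not a test.

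Over the 67 groups the partners of an overlapping pair were, in the middle of the distribution, almost uncorrelated. The median Pearson r of the group means of log2 CPM was 0.06 over the 1402 pairs, with quartiles of −0.17 and 0.29 and a range from −0.82 to 0.92. It was negative in 610 pairs (43.5%), at 0.5 or more in 127 (9.06%) and at −0.5 or less in 59 (4.21%). The gap pairs gave almost the same picture, with a median of 0.06 over 789 pairs, quartiles of −0.17 and 0.29, 43.3% negative, 10.1% at 0.5 or more and 4.69% at −0.5 or less. The points share libraries, scaling and depth and the pairs are not replicates, so these are descriptions, and the difference between overlapping and gap pairs was not tested here or for any other measure. With scaling by total counts in place of TMM factors, chosen after seeing the data, both medians were higher, 0.183 for overlapping and 0.153 for gap pairs.

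At all lengths of overlap the median correlation was close to 0. The median r was 0.04 for overlaps of 1 to 50 bp and of 51 to 100 bp, 0.08 for 101 to 200 bp and again up to 500 bp, and 0.05 for the 45 pairs beyond 500 bp. It was 0.05 where the overlap held no coding sequence, 0.06 where it reached that of 1 partner and 0.10 where it reached both. These medians lie within a small part of the spread between pairs, whose middle 50% covered −0.17 to 0.29. Among gap pairs the median was 0.07 for gaps of 1 to 100 bp, 0.03 for 101 to 250 bp and 0.08 for 251 to 500 bp.

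**Figure D2:**
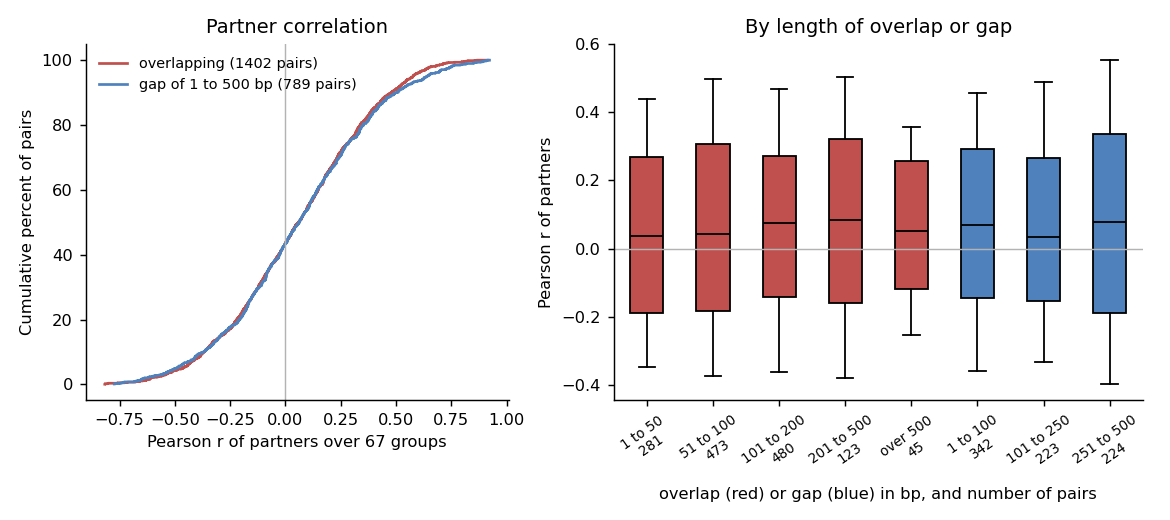
Left, cumulative percent of pairs (y axis) by the Pearson r of the partners over 67 group means of log2 CPM (x axis) for 1402 overlapping pairs (red) and 789 gap pairs (blue), whose curves run together. Right, the same r by length of the overlap or gap in bp, with boxes from the lower to the upper quartile, a line at the median, whiskers from the 10th to the 90th percentile and the number of pairs under each box.

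The median r was near 0 in separate portions of the series too, with a wider spread between pairs outside mycelium. Over the 50 groups labelled as vegetative, aerial or attached mycelium, the median r was 0.05 in overlapping and 0.05 in gap pairs, and over the 17 groups of spores, knots and primordia it was 0.06 and 0.09. In the latter groups the quartiles of the overlapping pairs were −0.33 and 0.46, with 22.7% of pairs at 0.5 or more and 15.4% at −0.5 or less, against 6.92% and 2.92% in mycelium. An r over 17 points varies more than an r over 50 whatever the groups are, and this was not separated from the tissues. By the labels, sclerotia count as mycelium here and the water agar cultures before the knot stage as knots. The sign of r was the same in both portions in 824 of 1402 pairs (58.8%). Deviations of single libraries from their group mean gave a median of 0.03 in overlapping and 0.02 in gap pairs, and r reached 0.5 or more in 16 overlapping pairs (1.14%) and 5 gap pairs (0.634%). By length of the overlap these within-group medians were 0.04, 0.05, 0.02, 0.02 and −0.00, from the shortest to the longest class.

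The partner with more transcript changed with the condition in many pairs. In 477 pairs (34.0%) the plus-strand gene was 4-fold or more above its partner in 1 group and 4-fold or more below it in another, against 291 gap pairs (36.9%). Most pairs therefore kept their order or differed less. The same partner was 4-fold or more above the other in all 67 groups in 70 overlapping (4.99%) and 75 gap pairs (9.51%). Ungerminated basidiospores were 1 of the extremes in 218 of 954 cases (22.9%), ungerminated oidia in 85, heat shock in 79 and mycelium overgrown by Trichoderma in 70. The last is the group of lowest depth, whose part in this was not tested. Without spores, germlings and overgrown mycelium, a choice made after seeing the data, 238 overlapping (17.0%) and 160 gap pairs (20.3%) still switched over the 60 remaining groups.

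Among the 54 pairs in which both partners had a mean of 10 CPM or more and varied by an SD of 1 or more between group means (log2), the highest r was 0.86. CopciAB_468419.T0 and CopciAB_468418.T0 (scaffold 5 of the CopciAB V2 annotation, 4 and 3 exons) overlap by 42 bp at 186250 to 186291, in their UTRs. CopciAB_468419.T0 was lowest in basidiospores after 12 h, at 0.0787, 0.0 and 0.228 CPM, and highest in knot cultures 7.5 h before knots, at 36.3, 25.5 and 21.6 CPM. CopciAB_468418.T0 was lowest in ungerminated basidiospores, at 0.147, 0.303 and 0.434 CPM, and highest in aerial mycelium at 156 h, at 176, 153 and 133 CPM. Both were low in basidiospores at all times and higher in the mycelium groups, except that in sclerotia CopciAB_468419.T0, at a log2 CPM of −0.74, was as low as in basidiospores. Over the 50 mycelium groups alone r was 0.55, and it was 0.79 without the 2 groups farthest from the median.

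Another pair followed stress treatments on both strands. CopciAB_1001272.T0 and CopciAB_447202.T0 (scaffold 6, 5 exons each, overlap of 83 bp at 157540 to 157622, reaching 1 coding sequence) had an r of 0.76 over all groups and 0.75 in mycelium. In calcium the libraries of CopciAB_1001272.T0 held 746, 659.8 and 953 CPM against a median of 8.41 over the groups. Those of CopciAB_447202.T0 held 2149, 1988 and 2516 CPM against a median of 180.1. For both genes voriconazole came second, with means of 214 and 1034 CPM, and Congo red next, with 81.7 and 614 CPM, and both were lowest in basidiospores after 4 h, where CopciAB_1001272.T0 had no count. Single libraries of a group also deviated together in this pair (within-group r of 0.59). The overlapping bases and the unstated strand setting leave the counts of both uncertain, and their part in this r was not tested.

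The other 3 pairs of highest r leaned on the spores. CopciAB_446855.T0 and CopciAB_446854.T0 (scaffold 8, overlap of 80 bp) had an r of 0.80 and of 0.43 in mycelium, with levels up to a mean of 68.0 CPM in primordia for the first and 49.8 CPM for the second, in aerial mycelium lit for 1 h. CopciAB_369413.T0 and CopciAB_450380.T0 (scaffold 3, overlap of 148 bp) had an r of 0.74 over all groups and −0.34 in mycelium. CopciAB_199884.T0 and CopciAB_547046.T0 (scaffold 9, overlap of 178 bp) had an r of 0.72 and of 0.02 in mycelium. In these last pairs the positive r was thus not seen among the mycelium groups.

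The pairs of lowest r mostly set spores against mycelium. The limit of 10 CPM on the mean favours this pattern, since a gene expressed mainly in spores can pass it through them alone. CopciAB_380084.T0 and CopciAB_502591.T0 (scaffold 11, 16 and 8 exons, overlap of 154 bp at 1898070 to 1898223, reaching 1 coding sequence) had an r of −0.80. CopciAB_502591.T0 stood at 184, 196 and 134 CPM in ungerminated basidiospores, where its partner had 0.147, 0.151 and 0.0 CPM. CopciAB_380084.T0 reached 48.5, 47.1 and 49.3 CPM in dark mycelium at 36 h. The minus-strand gene was thus high in spores and the plus-strand gene in mycelium, and over mycelium groups alone r was −0.33. CopciAB_502591.T0 passed the limit largely through spores, with a mean of 11.1 CPM over all libraries and a median of 2.13 CPM over the groups.

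**Figure D3:**
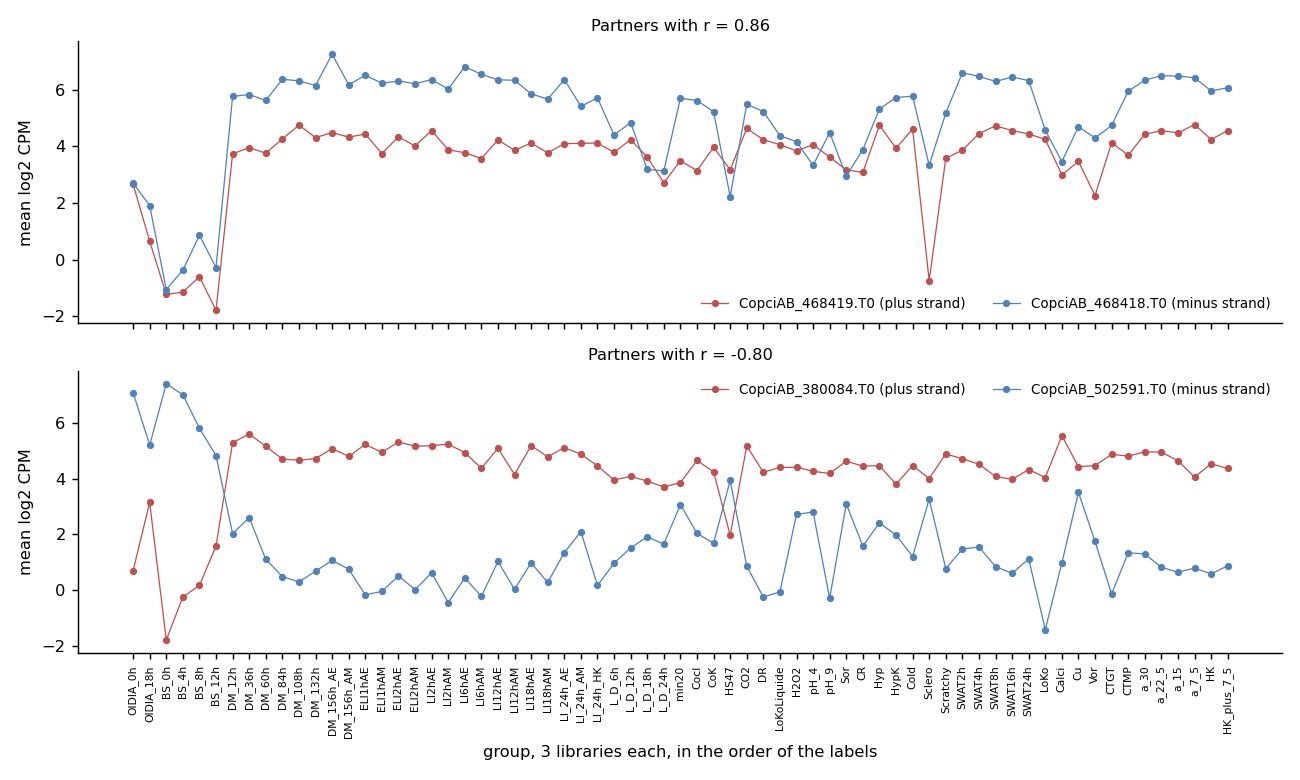
Mean log2 CPM (y axis, 3 libraries per group) of the plus-strand partner (red) and the minus-strand partner (blue) in each of the 67 groups (x axis, named as in the library labels) for the overlapping pairs of highest and lowest r among the 54 eligible. In the upper panel both partners are low in basidiospores, and in the lower panel CopciAB_502591.T0 is high in spores where CopciAB_380084.T0 is low.

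Next to it, CopciAB_537897.T0 and CopciAB_467882.T0 (scaffold 5, overlap of 83 bp) had an r of −0.80, and −0.19 in mycelium. The former went from a mean of 6.89 CPM in ungerminated basidiospores to 1647 CPM after 8 h on water agar, and the latter from 7.05 CPM in the cold to 528 CPM in ungerminated basidiospores. CopciAB_541843.T0, at 5555, 5807 and 6378 CPM in ungerminated basidiospores and a median of 0.333 CPM over the groups, overlapped CopciAB_233249.T0 by 32 bp on scaffold 12. That pair had an r of −0.66, and of −0.02 in mycelium. In both pairs r was closer to 0 over the mycelium groups alone.

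In the remaining pairs of low r the value over mycelium groups alone was nearly as low as that over all groups. CopciAB_377259.T0 and CopciAB_501439.T0 (scaffold 1, overlap of 117 bp) had an r of −0.64, and −0.58 in mycelium. The first was highest in the cultures 22.5 h before knots, at 81.4, 72.5 and 85.5 CPM, and the second in ungerminated basidiospores, at 4330.3, 4672 and 5863 CPM. The median of the second over the groups was 0.854 CPM. CopciAB_517646.T0 and CopciAB_495509.T0 (scaffold 8, overlap of 84 bp) had an r of −0.63, and −0.56 in mycelium. CopciAB_495509.T0 had a median of 0.824 CPM over the groups, so in both pairs r in mycelium rests in part on low counts. In the comparisons below, which draw on the same libraries as r, CopciAB_517646.T0 and CopciAB_495509.T0 were opposed in 4 and called the same way in oidia.

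The length of the overlap by itself fixed no pattern in the shortest and longest cases with both partners at 10 CPM or more. CopciAB_353997.T0 and CopciAB_353888.T0 (scaffold 2) share 1 bp and had an r of 0.25, CopciAB_412936.T0 and CopciAB_469436.T0 (scaffold 4) share 1 bp and had −0.35, and CopciAB_360490.T0 and CopciAB_84598.T0 (scaffold 2) share 2 bp and had −0.39. At the other end, CopciAB_503075.T0 and CopciAB_1001140.T0 (scaffold 5) share 1505 bp, with 1463 bp of 3′ UTR annotated for the second, and had an r of 0.32. CopciAB_486313.T0 and CopciAB_444224.T0 (scaffold 2, 1017 bp, reaching both coding sequences) had −0.20, and CopciAB_1000825.T0 and CopciAB_463566.T0 (scaffold 3, 932 bp) had 0.17. Just outside the rule, the abutting pair CopciAB_365585.T0 and CopciAB_527129.T0 had an r of 0.39, and the 3 closest gap pairs, at 3, 3 and 4 bp, had 0.02, −0.18 and 0.35. Both the 1 bp overlaps and the closest gaps thus ran from negative to positive.

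Both partners can have a high mean level over all libraries. CopciAB_41252.T0 and CopciAB_41081.T0 (scaffold 4, overlap of 50 bp) had mean levels of 184 and 254 CPM and an r of 0.10, CopciAB_473109.T0 and CopciAB_484915.T0 (scaffold 1, 25 bp) 258 and 186 CPM and 0.18, and CopciAB_541367.T0 and CopciAB_496879.T0 (scaffold 5, 220 bp) 129 and 300.1 CPM and 0.68. These are the 3 pairs whose weaker partner was highest. In the last, the sorbitol libraries of CopciAB_541367.T0 held 335, 272 and 315 CPM, its highest group, and in ungerminated oidia 28.1, 41.5 and 39.7 CPM, its lowest. The counts of CopciAB_41081.T0 were not whole in 66.2% of libraries, so part of them may be shared with other places in the genome.

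A set of 8 comparisons between groups was used to ask how often partners changed together or apart. The calls are those of edgeR's quasi-likelihood test, at an adjusted p (Benjamini-Hochberg, over all genes tested) under 0.05 together with a fold of at least 2. Aerial against attached mycelium and light in aerial mycelium share the aerial libraries at 156 h, and heat shock and sclerotia share the dark mycelium at 132 h, so these are not independent. The labels do not say whether the 3 libraries of a group stem from separate cultures. The p-values therefore speak only of the spread between these libraries, and that spread may be technical.

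Germination changed a large share of the genome, and the partners split almost evenly. In oidia after 18 h against 0 h, 1417 of 2882 tested members (49.2%) were called, against 53.9% of all tested genes. Of these, 731 were higher and 686 lower, where 26.6% and 27.4% of all tested genes were. Of 1276 pairs with both partners tested, 164 changed the same way and 141 in opposite ways, in 629 only 1 partner was called and in 342 neither. In basidiospores after 12 h against 0 h, 1968 of 2915 members (67.5%) were called, against 67.8% of all tested genes. They were 1142 higher and 826 lower, beside 36.6% and 31.2% of all tested genes. Of 1312 pairs, 306 changed the same way and 294 in opposite ways. Over all tested genes the median log2 change there was 0.18. The share of pairs called alike was thus close to that called apart in both kinds of spore.

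In oidia, CopciAB_370264.T0 and CopciAB_425950.T0 (scaffold 7, overlap of 45 bp at 756486 to 756530) rose together. CopciAB_370264.T0 had 0.254, 0.0 and 0.123 CPM at 0 h and 22.5, 22.3 and 11.2 CPM at 18 h, a ratio of pooled CPM of 129.5 with a 95% counting interval of 44.1 to 629.6, since only 3 reads were counted at 0 h (adjusted p = 6.13e-08). CopciAB_425950.T0 had 33.8, 14.2 and 14.5 CPM at 0 h and 389, 656 and 348 CPM at 18 h, a log2 change of 4.64 ± 0.43 (SE, adjusted p = 2.57e-07). The groups do not overlap in either gene. Without library 1 of the ungerminated oidia the fitted log2 change of the first was 7.85 in place of 7.05.

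The opposite case was CopciAB_242867.T0 and CopciAB_530149.T0 (scaffold 5, overlap of 214 bp at 2914269 to 2914482). CopciAB_242867.T0 rose from 6.74, 2.67 and 3.70 CPM to 51.4, 57.0 and 38.2 CPM, a log2 change of 3.61 ± 0.34 (adjusted p = 2.64e-07). CopciAB_530149.T0 fell from 6.10, 2.67 and 3.45 CPM to 0.178, 0.168 and 0.0 CPM, a log2 change of −4.86 ± 0.69 (adjusted p = 1.98e-05). The partners began at nearly equal levels and ended far apart, with no overlap between the groups of either gene.

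In basidiospores, CopciAB_27792.T0 and CopciAB_427679.T0 (scaffold 12, overlap of 102 bp at 464486 to 464587) rose together. The former went from 0.147, 0.605 and 0.0868 CPM to 8.81, 8.88 and 18.8 CPM (log2 change 5.64 ± 0.56, adjusted p = 2.11e-07) and the latter from 0.590, 0.303 and 0.174 CPM to 18.1, 20.1 and 74.6 CPM (6.88 ± 0.71, adjusted p = 7.78e-07). Library 3 at 12 h was the highest for both, and without it the log2 changes were 5.21 and 5.93. Without library 2 at 0 h that of CopciAB_27792.T0 was 6.75, and without library 3 at 0 h it was 5.05.

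CopciAB_1000623.T0 and CopciAB_466081.T0 (scaffold 3, overlap of 115 bp at 668696 to 668810) parted. CopciAB_466081.T0 fell from 517, 539 and 360.4 CPM to 10.9, 8.80 and 6.04 CPM, a log2 change of −5.69 ± 0.35 (adjusted p = 1.30e-09). CopciAB_1000623.T0, with 1 read in the ungerminated spores, had 2.20, 3.10 and 3.08 CPM at 12 h, a ratio of 68.6 with a counting interval of 12.0 to 2738 (adjusted p = 9.99e-07). Its fitted log2 change of 5.84 was 8.07 without library 2 at 0 h, which held the read, and 5.10 without library 3 at 0 h. The partner that rose stayed at a far lower level than the one that fell had started from.

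Between layers of the colony fewer genes differed. In aerial against attached mycelium at 156 h, 485 of 2993 members (16.2%) were called, against 19.6% of all tested genes. There were 198 higher and 287 lower members, beside 8.45% and 11.1% of all tested genes. Of 1373 pairs, 28 changed the same way and 16 in opposite ways. Without library 1 of the aerial mycelium these were 16 and 9. CopciAB_501653.T0 and CopciAB_490975.T0 (scaffold 1, overlap of 117 bp at 3888625 to 3888741) were opposed. CopciAB_501653.T0 was higher in aerial mycelium, at 261, 315 and 108 CPM against 7.55, 8.31 and 3.56 CPM (log2 change 5.09 ± 0.42, adjusted p = 9.98e-07). CopciAB_490975.T0 had 2 reads there, 0.0916, 0.0 and 0.0775 CPM, against 5.46, 4.15 and 2.94 CPM in attached mycelium, so it was lower by a ratio of 76.4 with a counting interval of 20.8 to 637 (adjusted p = 0.000583). Each gene was thus higher in another layer of the colony.

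CopciAB_369245.T0 and CopciAB_274808.T0 (scaffold 7, overlap of 157 bp at 63743 to 63899) were both lower in aerial mycelium. The first had 0.367, 0.313 and 0.233 CPM there against 6.83, 7.19 and 1.07 CPM (log2 change −4.05 ± 0.74, adjusted p = 0.000732), and the second 2.11, 2.58 and 5.89 CPM against 19.6, 10.8 and 119 CPM (−3.82 ± 0.77, adjusted p = 0.00277). Attached library 3 was the lowest of its group for the first and the highest for the second, and without it the log2 changes were −4.54 and −2.14. Without aerial library 3 that of CopciAB_274808.T0 was −4.44, and with only the 2 compared groups in the fit the call on the pair was lost.

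After 1 h of light in aerial mycelium, 417 of 2993 members (13.9%) were called, against 15.4% of all tested genes. The 181 higher and 236 lower members stand beside 7.87% and 7.53% of all tested genes. Of 1373 pairs, 12 changed the same way and 14 in opposite ways. The latter count was 8 and 9 without library 1 or 2 of the lit mycelium and 7 and 9 without library 1 or 2 of the dark aerial mycelium. CopciAB_375769.T0 and CopciAB_375776.T0 (scaffold 12, overlap of 755 bp at 264228 to 264982) rose together, from 9.26, 9.15 and 9.15 CPM to 33.2, 26.9 and 16.6 CPM for the first and from 12.6, 13.8 and 11.2 CPM to 45.8, 25.8 and 32.0 CPM for the second. Their log2 changes were almost equal, 1.51 ± 0.25 (adjusted p = 0.000686) and 1.50 ± 0.29 (adjusted p = 0.00184). This is the longest overlap among the pairs named for a comparison. The strand setting is not known, and the part of the shared bases in these similar changes was not tested.

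A single pair led the opposed pairs under light and in hyphal knots. CopciAB_464395.T0 and CopciAB_500507.T0 (scaffold 10, 4 and 17 exons) overlap by 29 bp at 437828 to 437856, in their UTRs. Under light CopciAB_464395.T0 rose from 0.0, 0.313 and 0.310 CPM to 4.24, 5.35 and 5.16 CPM (log2 change 4.46 ± 0.68, adjusted p = 0.000367), while CopciAB_500507.T0 fell from 5.13, 6.96 and 3.10 CPM to 1.08, 1.15 and 1.15 CPM (−2.13 ± 0.50, adjusted p = 0.00569). The order of the partners turned over in all 3 libraries of each group. CopciAB_464395.T0 was highest in primordia, with means of 47.6, 45.4 and 46.4 CPM at 12, 18 and 24 h of the cycle.

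In knots against attached mycelium 24 h after light, CopciAB_464395.T0 had 10.6, 4.41 and 2.91 CPM against 0.281, 0.267 and 0.0 CPM (log2 change 4.94 ± 0.89, adjusted p = 0.00260). CopciAB_500507.T0 had 11.8, 2.42 and 3.36 CPM in knots against 63.5, 58.1 and 31.6 CPM (−3.16 ± 0.54, adjusted p = 0.00211). Library 1 of the knots was the highest of its group for both genes, and without it the changes were 4.22 and −4.19. Over all members, 392 of 3048 (12.9%) were called in this comparison, against 15.3% of all tested genes. Higher in knots were 186 members and lower 206, beside 7.51% and 7.78% of all tested genes. Of 1425 pairs, 16 changed the same way and 13 in opposite ways. The first count was 27 with DESeq2, 7 without knot library 3 and 9 without attached library 2, and the second was 8 without attached library 2.

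CopciAB_504239.T0 and CopciAB_1001212.T0 (scaffold 5, overlap of 246 bp at 2826641 to 2826886) moved together in both knots and heat shock. In knots CopciAB_504239.T0 had 0.806, 0.916 and 0.909 CPM against 20.9, 22.0 and 5.18 CPM in attached mycelium (−4.22 ± 0.56, adjusted p = 0.000379), and CopciAB_1001212.T0 had 0.645, 0.5 and 0.545 CPM against 6.73, 8.89 and 6.13 CPM (−3.70 ± 0.42, adjusted p = 0.000118). After heat shock they had 14.2, 31.4 and 24.0 CPM and 21.0, 26.8 and 34.7 CPM, against 0.328, 0.0926 and 1.07 CPM and 0.493, 0.185 and 1.25 CPM in dark mycelium at 132 h. Those log2 changes were 5.55 ± 0.59 (adjusted p = 9.11e-08) and 5.44 ± 0.49 (adjusted p = 4.40e-09), and 6.70 and 6.31 without library 3 of the dark mycelium. The counts of these genes were not whole in 56.0% and 60.5% of libraries, so both may hold reads shared with other places and are uncertain beyond their overlap.

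Starvation on water agar for 24 h, against dark mycelium at 60 h, called 732 of 3009 members (24.3%), against 25.6% of all tested genes. With 404 higher and 328 lower, they compare with 14.9% and 10.7% of all tested genes. Of 1390 pairs, 51 changed the same way and 41 in opposite ways. CopciAB_501657.T0 and CopciAB_455126.T0 (scaffold 1, overlap of 253 bp at 3883289 to 3883541, reaching both coding sequences) rose together. The former went from 0.624, 0.856 and 1.11 CPM to 14.5, 10.4 and 6.60 CPM (3.61 ± 0.50, adjusted p = 5.84e-06) and the latter from 0.312, 0.0 and 0.257 CPM to 3.58, 5.28 and 3.18 CPM (4.33 ± 0.71, adjusted p = 4.20e-05). This pair was called the same way in 4 of the 8 comparisons, the most of any pair, a count reached by 11 pairs.

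CopciAB_463032.T0 and CopciAB_499677.T0 (scaffold 9, overlap of 194 bp at 761575 to 761768) were opposed in starvation. CopciAB_463032.T0 fell from 4.76, 7.88 and 2.22 CPM to 0.935, 0.391 and 0.611 CPM (−2.95 ± 0.58, adjusted p = 0.000315). CopciAB_499677.T0, with 2 reads in the control, had 0.935, 2.05 and 1.10 CPM after 24 h, a ratio of 26.2 with a counting interval of 6.76 to 225 (adjusted p = 0.0172). The call on the pair was lost without library 2 of the starved colonies and without library 1 or 2 of the control. With the 2 groups alone in the fit CopciAB_499677.T0 did not pass the filter on low counts and was not tested. Without control library 3, which held both reads, the fitted log2 change of CopciAB_499677.T0 was 6.79 in place of 4.39.

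Heat at 47 °C for 2 h changed the members about as widely as germination of oidia. Of 3056 members 1659 (54.3%) were called, against 55.9% of all tested genes. After heat 784 were higher and 875 lower, beside 27.5% and 28.4% of all tested genes. Of 1432 pairs, 219 changed the same way, 202 in opposite ways, 703 in 1 partner only and 308 in neither. CopciAB_1002242.T0 and CopciAB_545442.T0 (scaffold 10, overlap of 648 bp at 2061483 to 2062130) were opposed. CopciAB_1002242.T0 had 1 read in the dark mycelium, in library 3, after rounding to whole reads, and 8.42, 15.0 and 9.27 CPM after heat, a ratio of 360.4 with a counting interval of 64.0 to 14296 (adjusted p = 1.42e-07). CopciAB_545442.T0 had 0.739, 1.02 and 0.0893 CPM in the dark mycelium and no read after heat, at least 4.37-fold lower with 3 counts over the heated group as the floor (adjusted p = 0.0184). With only the 2 compared groups in the fit CopciAB_545442.T0 did not pass the filter on low counts and was not tested, so its call rests on the joint fit with other groups. Without library 3 of the dark mycelium the fitted log2 change of CopciAB_1002242.T0 was 9.69 in place of 8.05.

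**Figure D4:**
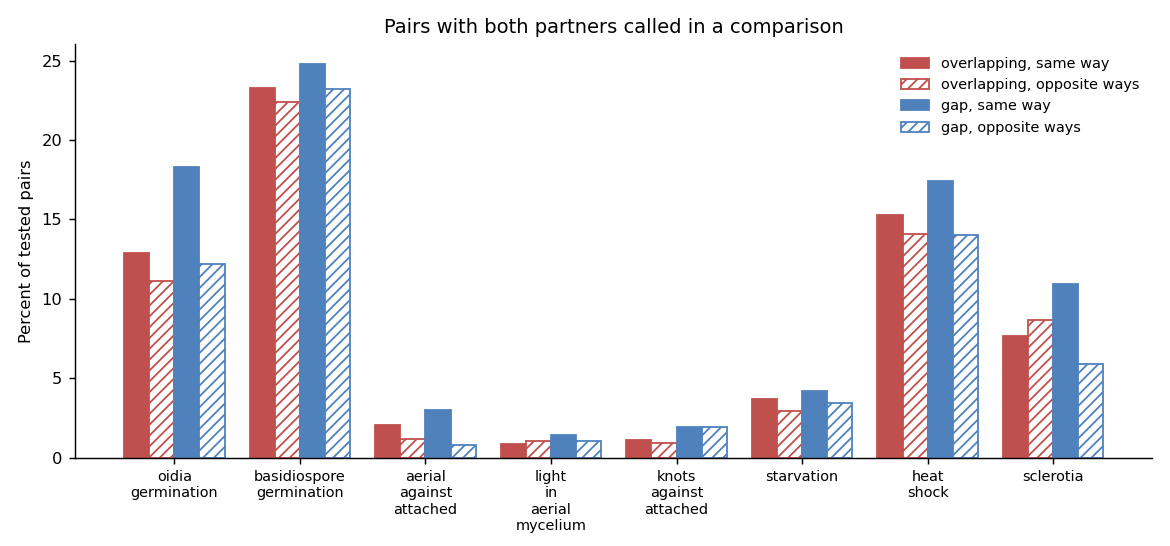
Percent of pairs with both partners tested (y axis, from 0) in which both were called the same way (filled bars) or in opposite ways (hatched bars) in each of 8 comparisons (x axis), for overlapping pairs (red) and gap pairs (blue). Overlapping pairs ran from 0.874% same way under light to 23.3% in basidiospores, where 22.4% were opposite.

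In sclerotia against dark mycelium at 132 h, about as many pairs were opposed as concordant. Of 3056 members, 1204 (39.4%) were called, against 40.8% of all tested genes. In sclerotia 620 were higher and 584 lower, beside 19.3% and 21.5% of all tested genes. Of 1432 pairs, 110 changed the same way and 124 in opposite ways. The gap pairs had 89 and 48 of 815 there. CopciAB_1000830.T0 and CopciAB_248409.T0 (scaffold 3, overlap of 12 bp at 3437152 to 3437163) were opposed, the former at 8.11, 8.60 and 8.96 CPM in sclerotia against 0.903, 0.556 and 0.268 CPM (3.87 ± 0.47, adjusted p = 7.28e-07). CopciAB_248409.T0 had 4.99, 5.80 and 3.16 CPM against 123, 109.7 and 161 CPM (−4.77 ± 0.48, adjusted p = 1.06e-06). The levels of CopciAB_1000830.T0 were far higher in copper, at 14839.9, 1553 and 1788 CPM, where library 1 stood apart from the other 2.

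CopciAB_452466.T0 and CopciAB_1000996.T0 (scaffold 4, overlap of 39 bp at 2558546 to 2558584) were both lower in sclerotia, at very unequal levels. CopciAB_452466.T0 had 31.8, 8.60 and 21.1 CPM against 2357, 2892 and 5079 CPM (−7.37 ± 0.50, adjusted p = 2.19e-08). CopciAB_1000996.T0 had 2 reads in sclerotia, against 3.04, 2.32 and 1.79 CPM in the dark mycelium, a ratio of 16.7 with a counting interval of 4.49 to 141 (adjusted p = 0.000259). Both reads were in library 2 of the sclerotia, without which the fitted log2 change was −7.53 in place of −3.92. The weaker partner followed the stronger over all groups too, with an r of 0.70, at levels of at most a mean of 4.18 CPM.

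**Figure D5:**
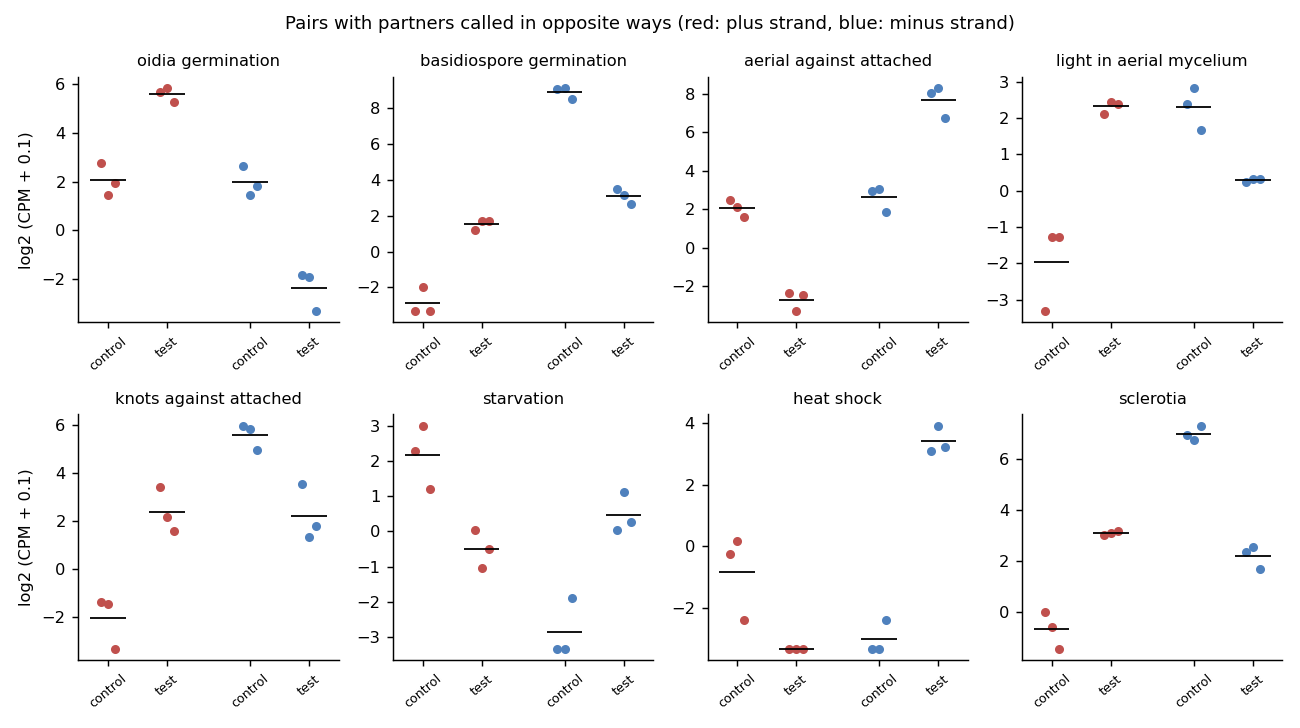
Levels as log2 (CPM + 0.1) (y axis) in each library (points) of the control and test groups (x axis) for the opposed pair named in each of 8 comparisons, plus-strand partner in red and minus-strand partner in blue, with the mean as a line. In each panel the partners move in opposite directions, as the rule that chose them requires. Points at the bottom of a panel are libraries without a read, except in sclerotia, where every library shown held reads.

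Across the 8 comparisons, 666 of the 1641 pairs were called the same way at least once, 646 in opposite ways at least once, 226 in both manners, and 555 in neither. No comparison tested both partners in more than 1432 pairs, so the 555 also hold pairs that could not be called. No such tally was made for gap pairs, so these counts have no background beside them. When 1 partner was called, the other was called in 49.2% of cases in oidia, 68.3% in basidiospores, 20.3% in aerial mycelium, 13.8% under light, 15.8% in knots, 27.0% in starvation, 54.5% after heat and 41.7% in sclerotia. Each share lies near the share of all tested genes called in that comparison. Among gap pairs it was 55.3%, 69.6%, 18.4%, 15.9%, 25.5%, 29.1%, 56.3% and 39.9% in the same order. The number of gap pairs called alike and apart was 129 and 86 in oidia, 176 and 165 in basidiospores, 23 and 6 in aerial mycelium, 11 and 8 under light, 15 and 15 in knots, 33 and 27 in starvation, 142 and 114 after heat and 89 and 48 in sclerotia. Among gap pairs with both partners called in aerial against attached mycelium, 79.3% thus went the same way, against 63.6% of overlapping pairs.

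Of the 1641 overlapping pairs, 4 were opposed in 4 or more of the 8 comparisons, and 11 were called the same way as often. The opposed pairs were singled out after their values were seen, and no such tally was made for gap pairs. Heat and sclerotia, which share a control, count among the comparisons of each. CopciAB_478114.T0 and CopciAB_448205.T0 (scaffold 7, overlap of 79 bp at 960506 to 960584) were called in opposite ways in 5 comparisons. CopciAB_478114.T0 rose in germinating basidiospores, from 3.39, 8.33 and 13.7 CPM to 208, 209 and 237 CPM (log2 change 4.74, adjusted p = 4.90e-09), while CopciAB_448205.T0 fell from 196, 185 and 129 CPM to 9.44, 9.64 and 9.01 CPM (−4.10, adjusted p = 3.43e-10). After heat the direction was turned round, with CopciAB_478114.T0 falling from 74.0, 105 and 60.6 CPM to 11.6, 14.8 and 16.3 CPM (−2.44, adjusted p = 1.84e-09) and CopciAB_448205.T0 rising from 6.65, 8.06 and 5.45 CPM to 75.9, 81.2 and 102 CPM (3.74, adjusted p = 8.69e-12). In resting basidiospores and heated mycelium the minus-strand gene was thus the higher one, and in the groups they were compared with the plus-strand gene was. The log2 changes were 1.07 and −1.57 in oidia, −1.28 and 1.08 in starvation and −1.11 and 2.73 in sclerotia. In each of these 3 comparisons 1 partner lay just past the 2-fold limit of the call. The call in oidia was lost without library 1 of either group, that in starvation without starved library 3, and that in sclerotia without control library 2.

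CopciAB_534746.T0 and CopciAB_461318.T0 (scaffold 10, overlap of 75 bp at 844826 to 844900) were opposed in the same 5 comparisons. CopciAB_534746.T0 was high in resting spores, at 140.3, 97.1 and 123 CPM in oidia and 112, 105 and 94.0 CPM in basidiospores. After germination it stood at 11.8, 15.2 and 11.6 CPM and 2.12, 1.59 and 0.684 CPM (log2 changes −3.06 and −6.00, adjusted p = 2.23e-07 and 2.53e-09). CopciAB_461318.T0 rose meanwhile from 53.0, 32.4 and 27.5 CPM to 195, 178 and 134 CPM in oidia and from 34.3, 34.8 and 62.4 CPM to 231, 239 and 285 CPM in basidiospores (2.32 and 2.61, adjusted p = 1.11e-05 and 3.19e-08). In starvation, heat and sclerotia CopciAB_534746.T0 rose by 2.69, 4.42 and 3.95 on the log2 scale and CopciAB_461318.T0 changed by −1.41, −1.22 and −1.11. CopciAB_534746.T0 held only 6 reads in the starvation control (mean of 0.169 CPM). It held 8 reads in the dark mycelium at 132 h (mean of 0.24 CPM), the control of both heat and sclerotia. In heat and sclerotia the change of CopciAB_461318.T0 lay just past the 2-fold limit of the call. The starvation call was lost without starved library 1, without control library 1 or 3 and with the 2 compared groups alone in the fit, and the call in sclerotia without sclerotium library 3.

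CopciAB_444826.T0 and CopciAB_379980.T0 (scaffold 6, overlap of 115 bp at 305809 to 305923) were opposed in 4 comparisons. In basidiospores their log2 changes were −3.16 and 7.63, after heat 2.92 and −3.41, in sclerotia 1.66 and −3.54, and under light 1.01 and −1.47. The last call was lost in all 11 alternatives, each removal of 1 library among them, and the other 3 in none. CopciAB_517646.T0 and CopciAB_495509.T0, the pair of low r above (overlap at 916675 to 916758), were opposed in 4 comparisons and called the same way in oidia. After heat CopciAB_517646.T0 had 8.95, 4.94 and 5.59 CPM against 21.8, 24.5 and 13.2 CPM, and CopciAB_495509.T0 9.87, 15.0 and 9.78 CPM against 0.246, 0.0926 and 0.804 CPM (−1.55 and 4.92, adjusted p = 0.000228 and 6.47e-07). In sclerotia the changes were −2.87 and 6.57, and in knots 1.61 and −3.12. In aerial mycelium they were 2.68 and −1.48, a call that was lost in 9 of 11 alternatives, among them the fit with the replicate number as a block and the removal of any 1 library.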

How the data were processed

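Per the labels' protocols, QuantSeq FWD 3′ libraries were read as 75 bp single ends. The authors deposited expected counts per gene, without normalization, and their CopciAB V2 gene models. The tools named in the submitters' processing notes are STAR 2.6.1a and featureCounts. For the latter's version, its strand setting, the genome build and reads that map to several places, details are not given in the sources used. Among nonzero values 19.9% were not whole (tolerance 0), and all were rounded for the fits. Groups came from the sample titles. No library was left out: no pair within a group was identical, and their counts differed by a chi-square of 2.39 per degree of freedom or more.

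Levels are CPM with TMM factors, and log2 CPM used a prior count of 2 (edgeR 4.0.16, R 4.3.3). Comparisons used filterByExpr (minimum count 10) and glmQLFTest with the robust fit and Benjamini-Hochberg adjustment over all genes tested. The fit of heat shock was also run on simulated counts, and those of the other comparisons were not. Groups that share a control or course were fitted together. DESeq2 1.42.0 was an alternative. SEs are the log2 change divided by the root of F. Partner correlations used the 67 group means and pairs with both partners at a mean of 1 CPM or more. Ratios with 1 to 3 reads in the lower group have exact 95% intervals that, like floors, cover counting error only, since the reads carry no molecular identifiers and need not be separate molecules.

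Pairs were named by rule: the 5 highest and 5 lowest r, the 3 shortest and longest overlaps and shortest gaps, the leading concordant and opposed pair of each comparison, and the 3 pairs with the most abundant weaker partner. Members, lists and rules were chosen with earlier results of these data known. Deviations of same-numbered libraries were positively correlated for all 3 numbers only in aerial against attached mycelium (0.14, 0.31 and 0.32). The labels state no pairing and differently numbered libraries were not compared, so a pairing of those samples is not established. The main fit used no block there or elsewhere. No genome or sequence table of this annotation was used here, so no sequences are printed.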

Additional observations from a re-analysis of the deposited data

How the results depend on the processing

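The median partner r was 0.059 in overlapping and 0.063 in gap pairs. In overlapping pairs it was 0.054 as Spearman's rho, 0.036 at 10 CPM or more, 0.051 over single libraries, 0.034 for deviations within groups, 0.049 in mycelium and 0.183 with total counts in place of TMM. In gap pairs it was 0.052 with RLE factors, 0.056 with no filter, 0.052 at 10 CPM or more, 0.043 over single libraries, 0.016 within groups, 0.051 in mycelium, 0.088 in spores, knots and primordia and 0.153 with total counts. The cause was not tested, and every value stayed positive. Leaving out replicate 1, 2 or 3 gave 0.058 to 0.058 and 0.051 to 0.058. Of the counts of overlapping pairs, only the knots pairs called the same way moved by over 1.5 times outside the removal of a library, from 16 to 27 with DESeq2. Removal of 1 library gave, for pairs called the same and opposite ways, 156 to 195 and 123 to 157 in oidia, 304 to 318 and 280 to 301 in basidiospores, 16 to 31 and 9 to 18 in aerial mycelium, 8 to 17 and 7 to 18 under light, 7 to 19 and 8 to 14 in knots, 36 to 47 and 33 to 43 in starvation, 208 to 224 and 193 to 207 after heat, and 100 to 119 and 110 to 134 in sclerotia. With 1 library fewer, fewer samples enter the test. The counts of gap pairs that moved as far were these: opposed pairs in aerial mycelium from 6 to 10 without aerial library 3, concordant pairs under light from 11 to 7 without lit library 1, and opposed pairs in knots from 15 to 7 without knot library 3 and to 9 without attached library 2.

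With the replicate number as a block, the concordant and opposed counts were 175 and 141 in oidia, 307 and 293 in basidiospores, 30 and 16 in aerial mycelium, 17 and 14 under light, 18 and 12 in knots, 51 and 39 in starvation, 213 and 196 after heat, and 108 and 121 in sclerotia. The block moved no count by over 1.5 times. Outside aerial against attached mycelium the correlations of same-numbered deviations ran from −0.30 to 0.24. Low depth limits the overgrown mycelium most. Pairs with a partner under 1 CPM, 239 of 1641, entered no correlation.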

Other observations

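Divergent and tandem neighbours of the same annotation had higher partner correlations over the 67 groups than overlapping convergent pairs, while distant convergent pairs had nearly the same. The median r was 0.20 in 1731 divergent pairs with a gap of up to 500 bp, 0.13 in 2876 tandem pairs with such a gap and 0.07 in 345 convergent pairs farther apart than 500 bp. An r of 0.5 or more was reached by 18.0% of these divergent, 15.4% of these tandem and 9.28% of these distant convergent pairs, against 9.06% of overlapping convergent pairs. Overlapping neighbours of the other orientations were few among the pairs used: the median r was 0.27 in 33 divergent and 0.17 in 135 tandem overlaps, with 21.2% and 17.8% at 0.5 or more. Negative values made up 27.3% of the divergent and 37.0% of the tandem pairs with a gap, 42.9% of the distant and 43.5% of the overlapping convergent pairs. These are descriptions of pairs that share libraries, and the differences were not tested.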
